A study of Gossypium hirsutum with 63 samples.

Results

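The genes described here are the MAP kinase cascade genes of upland cotton, chosen as the loci whose description in the deposited expression table holds "MAP kinase", "mitogen-activated" or "MAPK" in any case. The rule found 147 of 80325 loci: 55 MAP kinase kinase kinases (MAP3K), 23 MAP kinase kinases (MAP2K), 55 MAP kinases (MAPK), 10 phosphatases and 4 substrates. Of these, 65 lie on the A subgenome of this allotetraploid, 70 on the D subgenome and 12 on scaffolds. The descriptions give the nearest named plant gene, so several loci share 1 description, and homoeologous copies may share reads.

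The study sequenced 7 genotypes, given by letters as in the labels: the inbred parents A (SJ48), B (Z98-15), C (851-2) and D (DT-8), and the F1 hybrids H (A crossed with B), M (A crossed with C) and L (A crossed with D), which the study ranks as high, medium and low for yield heterosis. A is the maternal parent of all 3 hybrids. Young leaf, flower buds and the ovule at 1 day post anthesis were collected in the field, with 3 biological replicates each, which gives 63 libraries. Leaves were pooled from different plants and buds over several sizes, so a library stands for several plants and, in buds, several stages.

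In a MAP kinase cascade a MAP3K phosphorylates a MAP2K, which phosphorylates a MAPK, which acts on transcription factors, enzymes and cytoskeletal proteins. Phosphatases such as MAP kinase phosphatase 1 switch the last kinase off. In Arabidopsis, MEKK1, MKK1 and MKK2 act on MPK4, while MAP kinase kinase kinases 3 and 5 with MKK4 and MKK5 act on MPK3 and MPK6 in immunity. MPK3 and MPK6 also act in stomatal patterning and in ovule and embryo development. The kinases are also controlled by phosphorylation, which RNA levels do not measure.

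For Gh_D08G1467, a locus described as MAP kinase 4, the study designed a primer pair for quantitative PCR. The pair is shown because this is 1 of the 2 loci on which the ovule results turn. Each primer has 21 bases, 9 of them G or C (42.9%).
Gh_D08G1467 forward: aacccaaggcaaaatttctcg
Gh_D08G1467 reverse: attgatgtcatgaagtggtgc

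Values are FPKM (fragments per kilobase of transcript, scaled to the mapped fragments of the library), as the authors deposited them. The files hold no read numbers, so the depth behind each value is unknown from them. The bases sequenced per library, listed in the study's sequencing summary, were not used here, and the spread between replicates is the measure of error. Total FPKM per library ran from 410556 to 477980, of which the MAP kinase cascade genes took 0.1263 to 0.1881%. In the ovule, L replicates 2 and 3 stood apart: their median correlation with the 20 other ovule libraries was 0.812 and 0.800, against 0.911 to 0.924 for the 19 others. The marker list for leaf mesophyll summed to at least 1.163e+04 FPKM in leaf and at most 188.7 in ovule, and that for fibre initials and epidermis to 1486 to 2682 in ovule against at most 736.1 elsewhere. Most of the latter came from 5 protodermal factor loci (1234 to 2429 FPKM in ovule, at most 515.6 in leaf). Its 101 trichome loci were not higher in ovule (132.8 to 171.3 FPKM) than in leaf (141.4 to 204.7) or flower buds (147.7 to 298.3). The pollen and anther list ran from 440.2 to 2978 FPKM in flower buds, 374.6 to 978 in leaf and 314.5 to 747.6 in ovule. Its medians were 616.2, 643.9 and 360.7 FPKM, so it did not separate flower buds from leaf. The ovule and seed coat list was not higher in ovule (423.9 to 1271 FPKM) than in leaf (538.6 to 1598), and its words found only AINTEGUMENTA, BEL1 and seed storage descriptions, with no AGAMOUS-like 11 or INNER NO OUTER locus.

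Of the 147 loci, 138 exceeded 0.5 FPKM in at least 1 library and 1 was listed at 0 throughout. The number above 0.5 FPKM in all 21 libraries of a tissue was 85, 86 and 85 for leaf, flower buds and ovule. Summed over all members, leaf held 583.1 ± 19.56 FPKM, flower buds 638.3 ± 10.82 and ovule 698.4 ± 44.9 (SD over 7 genotype means). The MAPK class held most of it (372.9, 389.8 and 421.3 FPKM). The MAP3K class rose in the same order from 114.9 over 126.8 to 159.1 FPKM, and the spread between genotypes was widest in ovule (SD 23.11). The substrates, MAP kinase substrate 1 (MKS1, a VQ motif protein that binds MPK4 in Arabidopsis), were listed at 0 in most libraries and summed to at most 5.959 FPKM in any.

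**Figure D1:**
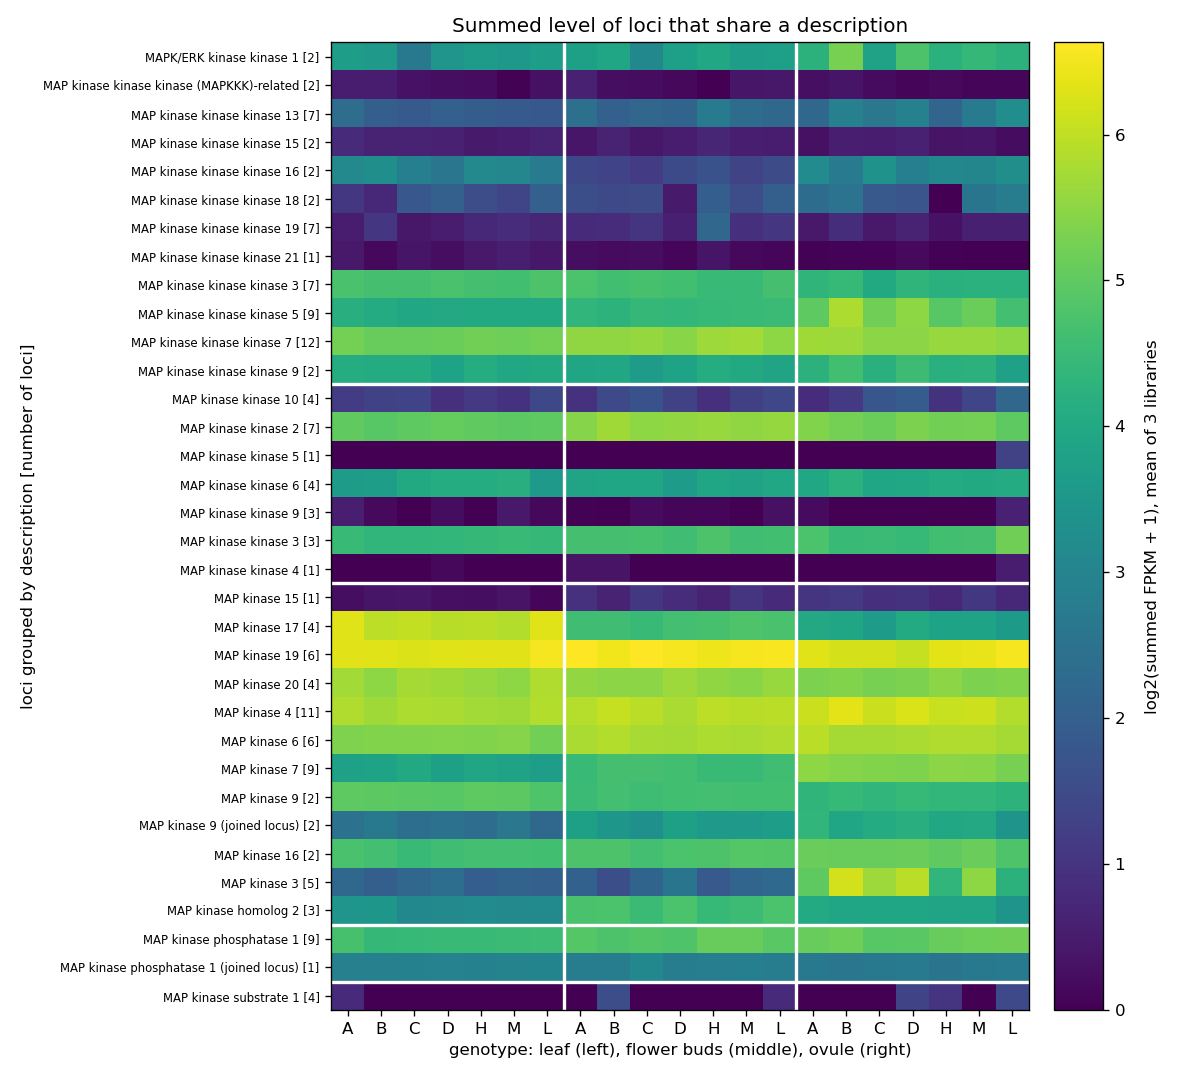
Summed level of the loci that share a description, as log2(summed FPKM + 1) of the mean over 3 libraries, by genotype (columns) in leaf, flower buds and ovule, with white lines between classes (MAP3K, MAP2K, MAPK, phosphatase, substrate from top to bottom). The row of MAP kinase 3 is dark in leaf (mean 3.401 FPKM) and flower buds (3.35) and bright in ovule (42.18), with B and D brightest.

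The tissues were compared first, to show where each rank of the cascade was transcribed. Summed over their loci, MAP kinase 3 and MAP kinase 7 were highest in ovule, MAP kinase homolog 2 in flower buds and MAP kinase 17 in leaf. A locus was called when its Benjamini-Hochberg adjusted p in limma was under 0.05 over all genes tested and its difference on the log2(FPKM + 1) scale was above 1 or below -1. Leaf against flower buds gave 6 members called higher and 6 called lower of 138 tested, where 6.05% and 8.09% of all 68947 genes were called. Ovule against flower buds gave 7 higher and 6 lower (all genes 3.58% and 7.13%), and ovule against leaf 10 higher and 8 lower (all genes 9.84% and 9.08%). These shares lay near or under the background. The 7 rises in ovule over flower buds lay only a little above it, and became 6 after upper quartile rescaling. The median difference over members was -0.07, 0.00 and 0.18 in the 3 contrasts, against -0.14, 0.00 and 0.11 over all genes. In all, 25 members were called in at least 1 of them.

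Among the MAP3Ks, the pair described as MAP kinase kinase kinase 16 was low in flower buds. Gh_A05G1471 held 3.75 ± 0.64 FPKM in leaf, 1.24 ± 0.17 in flower buds and 5.93 ± 1.2 in the ovule (SD over 7 genotype means), and its libraries in flower buds (0.68 to 1.93) lay below all others. The difference was 1.08 ± 0.06 (SE; adjusted p = 6.81e-22) for leaf and 1.62 ± 0.06 (adjusted p = 1.94e-28) for ovule over flower buds. Gh_D05G1644 was likewise higher in leaf than in flower buds by 1.51 ± 0.05 (adjusted p = 6.78e-29).

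The 9 loci of MAP kinase kinase kinase 5, which in Arabidopsis activates the MKK4 and MKK5 step, summed to 15.43 ± 0.6877 FPKM in leaf, 20.3 ± 1.181 in flower buds and 36.21 ± 10.57 in the ovule. Of these, Gh_A05G1720 was called higher in ovule than in both other tissues (1.21 ± 0.06 over flower buds and 1.64 ± 0.06 over leaf, adjusted p = 9.49e-23 and 2.36e-28), and Gh_D05G1912 over leaf (1.43 ± 0.06, adjusted p = 2.94e-25). The 12 loci of MAP kinase kinase kinase 7, the most numerous description, held 35.13, 46.67 and 46.67 FPKM in leaf, flower buds and ovule, and none was called in a tissue contrast. Gh_A03G1448, of this description, and Gh_A02G0770, of MAP kinase kinase kinase 9, were among the 3 most abundant MAP3K loci, at 8.41 ± 0.54 and 10.4 ± 1.9 FPKM in ovule.

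Among the MAP2Ks, the 7 loci of MAP kinase kinase 2, which acts on MPK4 in Arabidopsis, summed to 30.84 ± 1.123 FPKM in leaf, 46.17 ± 2.661 in flower buds and 36.48 ± 3.155 in the ovule. For Gh_A07G0124, 1 of them, the flower bud libraries ran from 2.09 to 6.3 FPKM, above every leaf (at most 0.873) and ovule library (at most 0.583). It was called lower in leaf by 1.59 ± 0.08 and in ovule by 1.77 ± 0.08 on the log2 scale (adjusted p = 1.75e-23 and 4.25e-25). The most abundant MAP2K loci were Gh_D11G0703 and Gh_A11G0616 (MAP kinase kinase 3, which acts on the MPK7 group in Arabidopsis) and Gh_D06G0748 (MAP kinase kinase 2), at 13, 11.9 and 12.8 FPKM in ovule. The MAP kinase kinase 4 and 5 loci, 1 each, were close to absent, with tissue means of at most 0.07705 and 0.2101 FPKM.

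Of the MAP kinase kinase 6 loci, which in Arabidopsis act with MPK4 in cytokinesis, Gh_A07G0085 and Gh_D07G0094 were above 0 in flower buds alone. Gh_A07G0085 reached 1.97 FPKM and Gh_D07G0094 ran from 0.106 to 3.37 FPKM over the 21 flower bud libraries, and both were listed at 0 in all leaf and ovule libraries.

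MAP kinase 3 stood out among the MAPKs. Its 5 loci summed to 3.401 ± 0.4472 FPKM in leaf, 3.35 ± 0.9149 in flower buds and 42.18 ± 20.36 in the ovule, and 3 of the 4 tested were called higher in ovule than in each other tissue. Gh_D03G1283 ran from 5.43 to 28.4 FPKM in the 21 ovule libraries (median 15.2) and did not pass 0.988 in leaf or 1.16 in flower buds. It rose by 3.21 ± 0.07 over leaf and 3.19 ± 0.07 over flower buds (adjusted p = 8.49e-37 and 4.87e-36).

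Gh_A03G0291 ran from 4.62 to 41.5 FPKM in ovule (median 15.3), against 0.609 to 2.29 in leaf and 0.592 to 3.66 in flower buds, so ovule overlapped neither of the other tissues. The differences were 2.95 ± 0.11 and 2.67 ± 0.11 (adjusted p = 4.90e-28 and 7.08e-26). Gh_A05G0864, the third locus called, lay between 1.99 and 12.7 FPKM in ovule and between 0.292 and 1.86 in the other tissues.

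MAP kinase 7, of the group that MKK3 activates in Arabidopsis, was lowest in leaf (13.31 ± 1.067 FPKM summed over 9 loci) and highest in ovule (41.56 ± 2.272), with flower buds between them (22.91 ± 1.468). Gh_A11G0401 accounted for 1.33 ± 0.25, 5.81 ± 0.41 and 13.9 ± 1 of these, with a difference of ovule to leaf of 2.68 ± 0.06 (adjusted p = 1.51e-37). Gh_D11G0464 had 1.29 ± 0.088, 6.4 ± 0.42 and 11.5 ± 0.93 FPKM, and differed by 2.43 ± 0.07 (adjusted p = 1.34e-33). Unlike MAP kinase 3, these loci varied little between genotypes, as the SDs show, and Gh_D12G0590 was the third called over leaf.

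MAP kinase 17 showed the opposite order. Its 4 loci summed to 65.62 ± 8.48 FPKM in leaf, 24.22 ± 1.876 in flower buds and 13.51 ± 1.634 in the ovule, and 3 of the 4 were called lower in ovule than in leaf. Gh_A03G2127 held 21.8 to 35.8 FPKM in leaf libraries, 6.44 to 12.9 in those of flower buds and 2.57 to 6.27 in those of ovule, so that no 2 tissues overlapped, and ovule lay lower than leaf by 2.29 ± 0.05 (adjusted p = 1.51e-38). Gh_D02G1456 lay lower in ovule by 2.10 ± 0.04 (adjusted p = 3.39e-38) and Gh_D01G1468 by 1.75 ± 0.04 (adjusted p = 3.84e-36). The call of Gh_A03G2127 for ovule against flower buds sat at the fold limit, at 1.00 lower.

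MAP kinase 4 loci did not move as a block. The 11 loci summed to 53.55 ± 3.072, 60.08 ± 3.597 and 69.22 ± 7.394 FPKM in leaf, flower buds and ovule. Gh_A12G2676 was low in ovule, with 0.315 ± 0.067 FPKM against 2.57 ± 0.68 in leaf and 4.47 ± 0.67 in flower buds, a difference of -1.39 ± 0.07 to leaf and -2.04 ± 0.07 to flower buds (adjusted p = 2.96e-22 and 2.75e-28). Gh_D12G2757 had the same order, with 0.315 ± 0.096 FPKM in ovule and 2.83 ± 0.53 in flower buds. Gh_D08G1467 went the other way, at 11 ± 5.6 FPKM in ovule and 4.37 ± 0.25 in flower buds, a difference of 1.03 ± 0.05 (adjusted p = 1.37e-21) that was no longer called after upper quartile rescaling. Its genotype means in ovule ran from 4.987 FPKM in L to 20.33 in B. The L ovule libraries overlapped those of flower buds, so the rise was not shared by all genotypes.

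MAP kinase homolog 2 (3 loci) was highest in flower buds at 24.04 ± 2.263 FPKM, against 8.481 ± 1.16 in leaf and 13.57 ± 1.783 in ovule. Gh_A03G0709 held 8.94 to 15.5 FPKM in flower buds and at most 4.52 in leaf and 6.25 in ovule, with differences of -1.85 ± 0.05 (leaf) and -1.18 ± 0.05 (ovule; adjusted p = 4.31e-34 and 4.51e-26). Gh_D02G0958 was called lower in ovule, by 1.76 ± 0.08 (adjusted p = 2.36e-23).

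The remaining calls fell among the kinases of MAP kinase 9 and 19, which carry the TDY motif in Arabidopsis. MAP kinase 19 was the most abundant description, at 80.7, 92.81 and 78.09 FPKM over 6 loci, with Gh_D11G2977 at 17 ± 1.3 FPKM in leaf and 35.7 ± 2.6 in flower buds (no longer called after upper quartile rescaling), Gh_A11G3283 at 17.8 ± 0.97 and 29.6 ± 1.6, and Gh_A04G0385 and Gh_A01G0304 highest in leaf. The 2 joined loci of MAP kinase 9 and a transducin gene, Gh_D11G0033;Gh_D11G0034 and Gh_A11G0035;Gh_A11G0036, were called higher in ovule than in leaf, but their values cannot be assigned to the kinase alone. MAP kinase phosphatase 1 (9 loci) summed to 21.8 ± 1.532, 29.36 ± 2.829 and 32.88 ± 2.735 FPKM, and none of the phosphatase loci was called between tissues. Gh_D04G0576 and Gh_A05G3067 were its most abundant single loci, at 8.19 ± 0.99 and 7.97 ± 0.79 FPKM in ovule.

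**Figure D2:**
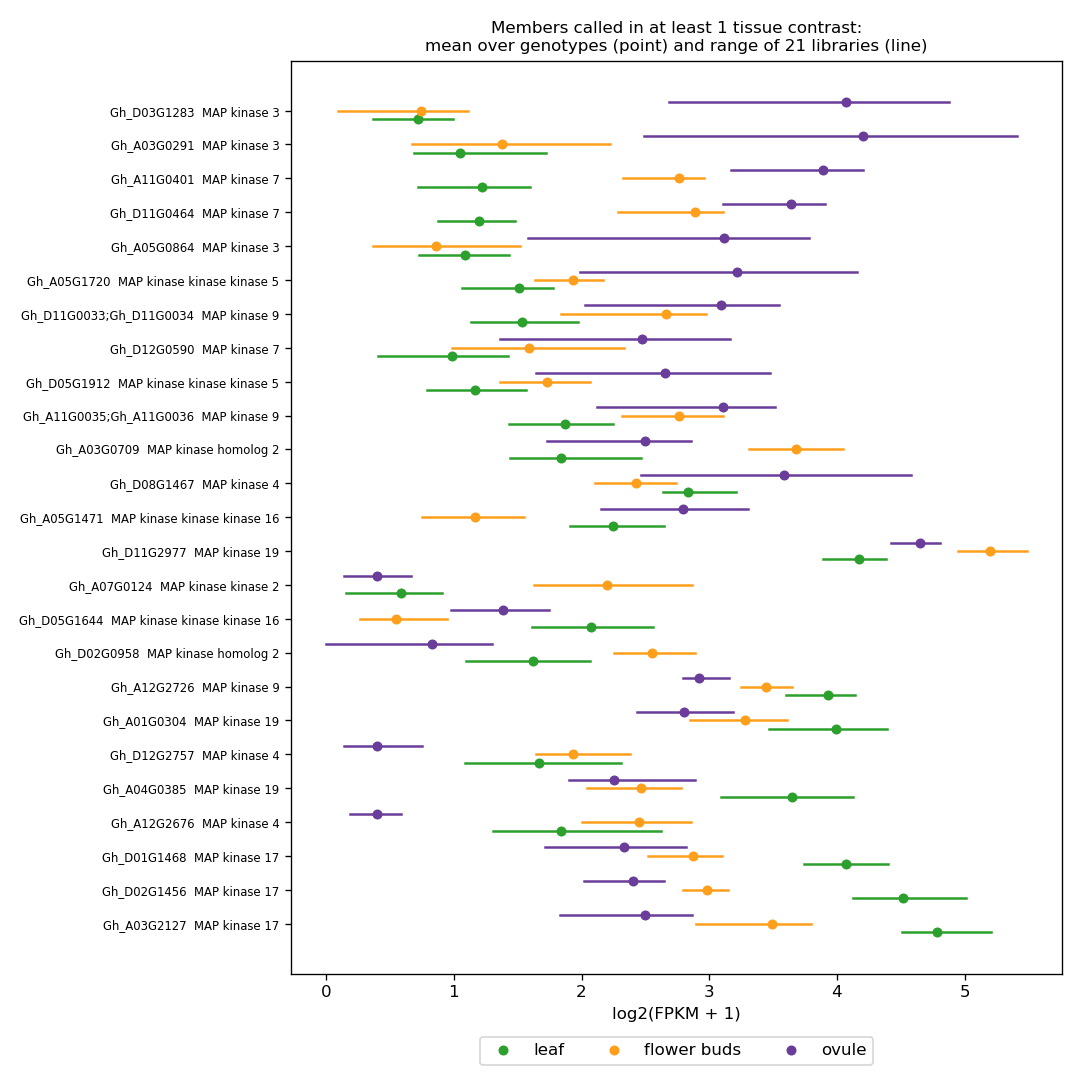
The 25 members called in at least 1 tissue contrast: mean over 7 genotypes (point) and range over 21 libraries (line) in leaf (green), flower buds (orange) and ovule (purple), on a log2(FPKM + 1) axis. The MAP kinase 3 loci Gh_D03G1283 and Gh_A03G0291 lie far to the right in ovule with long lines, and the MAP kinase 17 loci at the bottom lie to the right in leaf.

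Within the ovule, a minority of members was higher in B or D than in the hybrids. The 2 loci with the most marked difference were Gh_A03G0291 (MAP kinase 3) and Gh_D08G1467 (MAP kinase 4). With them rose the other tested MAP kinase 3 loci, several MAP kinase kinase kinase 5 loci and both MEKK1 loci, while MAP kinase 19 locus Gh_D05G3251 fell. Summed over all members, B had 780.2 ± 29.52 FPKM (SD, n = 3) and D 722.8 ± 8.938, against 662.8 ± 9.76 in H, 708.1 ± 12.66 in M and 648.5 ± 19.97 in L, with A at 699.2 ± 15.62 and C at 667.4 ± 19.89. The libraries of D (716.5 to 733 FPKM) overlapped those of M (696.3 to 721.5). For the MAP3K class the values were 205.2 ± 14.23 in B, 171.9 ± 7.44 in D, and 141.5, 157 and 141.1 in H, M and L. The MAPK class held 457.3 ± 21.49 in B and 436.8 ± 4.611 in D, which overlapped M (432.4 ± 12.05), with 405.1 in H and 375.4 in L. The MAP2K class did not follow, with 77.69 in B, 77.65 in D and 77.05 to 88.6 in the hybrids.

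Gh_A03G0291 had 29.3, 41.5 and 36.2 FPKM in the B ovule libraries and 22.5, 25.3 and 25.8 in those of D. The H libraries held 6.28, 10.3 and 6.25 FPKM, the M libraries 22.6, 15.3 and 14.4, and the L libraries 10.003, 4.62 and 5.39. All 3 B libraries lay above all 9 hybrid libraries, while 1 D library lay just under the highest M library. A had 11.99, 11.7 and 7.87 FPKM and C 24.7, 17.4 and 17.6. On the log2 scale B exceeded the mean of the hybrids by 1.81 ± 0.21 (SE; adjusted p = 2.34e-05) and D by 1.297 ± 0.21 (adjusted p = 7.08e-04). The order of the means was B, D, C, M, A, H, L, and neighbours in it overlapped, except B with D and M with A.

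Gh_D08G1467 had 17.4, 23 and 20.6 FPKM in B and 17.8, 16.6 and 16.2 in D. The hybrids lay lower, at 6.3, 8.53 and 4.82 FPKM in H, 10.3, 8.94 and 9.29 in M and 5.58, 4.85 and 4.53 in L. Neither B nor D overlapped with any hybrid library, and the 2 parents overlapped with each other. A (8.64, 10.5 and 6.34 FPKM) and C (11.7, 8.62 and 10.6) overlapped the hybrids and lay below D. The difference to the hybrids was 1.45 ± 0.14 for B (adjusted p = 4.29e-06) and 1.21 ± 0.14 for D (adjusted p = 3.62e-05). The order of the means was the same as for Gh_A03G0291.

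In leaf and flower buds neither locus differed by the test. Gh_D08G1467 ran from 5.22 to 8.27 FPKM over all leaf libraries and from 3.31 to 5.67 over all flower bud libraries, with B above the hybrids by 0.01 ± 0.10 in leaf and 0.07 ± 0.11 in flower buds. For Gh_A03G0291 the differences of B were 0.00 ± 0.16 and -0.39 ± 0.30, and those of D 0.35 ± 0.16 and 0.40 ± 0.30 (adjusted p from 0.396 to 1). Over the 63 libraries, the members most like Gh_D08G1467 by Pearson's r on log2(FPKM + 1) were Gh_D12G0854 (0.904), Gh_A12G0645 (0.879) and Gh_D05G3876 (0.872). Those most like Gh_A03G0291 were Gh_D03G1283 (0.975), Gh_A05G0864 (0.96) and Gh_A05G1720 (0.938). The 2 loci correlated with each other at 0.794 over 63 libraries and at 0.944 over the 21 ovule libraries. These points share tissues, genotypes and libraries, so the values only describe likeness.

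**Figure D3:**
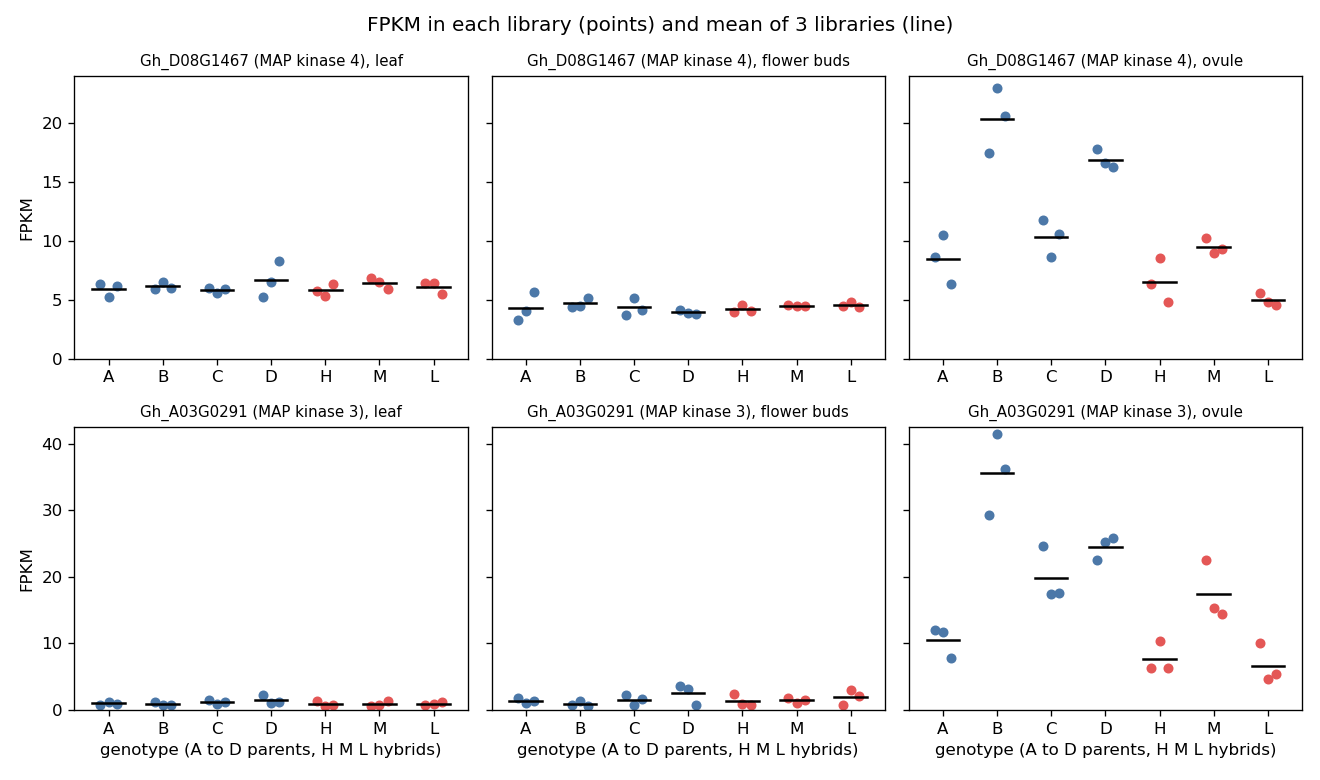
FPKM of Gh_D08G1467 (top) and Gh_A03G0291 (bottom) in leaf, flower buds and ovule, 1 point per library, parents A to D in blue, hybrids H, M and L in red, with a line at the mean of 3 libraries. In ovule B (20.3 and 35.7 FPKM on average) and D (16.9 and 24.5) lie highest, and in the other tissues the genotypes lie together.

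Across the members, B was called higher than the hybrids at 7 loci and lower at 0 of 123 tested, where 0.923% and 0.453% of all 59372 genes were called. D was called higher at 4 loci and lower at 0 (all genes 0.627% and 0.52%). With an adjusted p under 0.05 and no minimum difference, which is written here as passing, B passed higher at 16 members and lower at 4 (all genes 4.09% and 3.4%), and D higher at 15 and lower at 6 (all genes 4.62% and 4.98%). The median difference of the members was 0.04 for B and 0.05 for D, against -0.03 and -0.04 over all genes. B and D were set against the same hybrid libraries, so both comparisons share them. At an unadjusted p under 0.05, 32 members (26%) differed for B and 42 (34.1%) for D, against 20% and 23.5% of all genes. Without L ovule replicates 2 and 3, B was called at 3 members (Gh_A03G0291, Gh_D08G1467 and Gh_A08G1183) and D at 3, having lost Gh_A05G0864. Without B replicate 2 the count for B was also 3 (Gh_A03G0291, Gh_D08G1467 and Gh_A05G0864).

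Base quality moved with genotype in the ovule. By the study's sequencing summary, all 3 A libraries and B replicates 1 and 2 fell in a group of lower Q30 and the other ovule libraries in a group of higher Q30. Only B had libraries in both groups, so a covariate for the group was estimated from B replicates 1 and 2 against B replicate 3, also for A. The difference of B in that fit was that of B replicate 3 alone. A fit with B replicate 3 as the only B library was therefore no separate check. With the covariate, B was called at 4 members: Gh_A03G0291, Gh_D08G1467, Gh_A05G0864 and Gh_A12G0645. The error of B replicate 3 was taken from the spread of other libraries. The leaf mesophyll list summed to 96.91 to 118 FPKM in the B ovules, 89.5 to 97.1 in D and 103 to 188.7 in the hybrids, and the pollen and anther list to 314.5 to 350.6, 322.5 to 340.8 and 321.6 to 747.6. In this last range, L replicates 2 and 3 held 747.6 and 733.1 FPKM, and the other hybrid libraries 321.6 to 394.4. The ovule and seed coat list ran from 480.2 to 596.9 FPKM in B, 465.6 to 597.3 in D and 423.9 to 1271 in the hybrids (medians 491, 573.7 and 693.4). The fibre and epidermis list did not separate them (1532 to 2264, 1779 to 1966 and 1486 to 2213 FPKM). The part of these in the result was not tested beyond the fits given. In a whole ovule, a higher RNA level per cell and more cells of a type cannot be told apart.

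**Figure D4:**
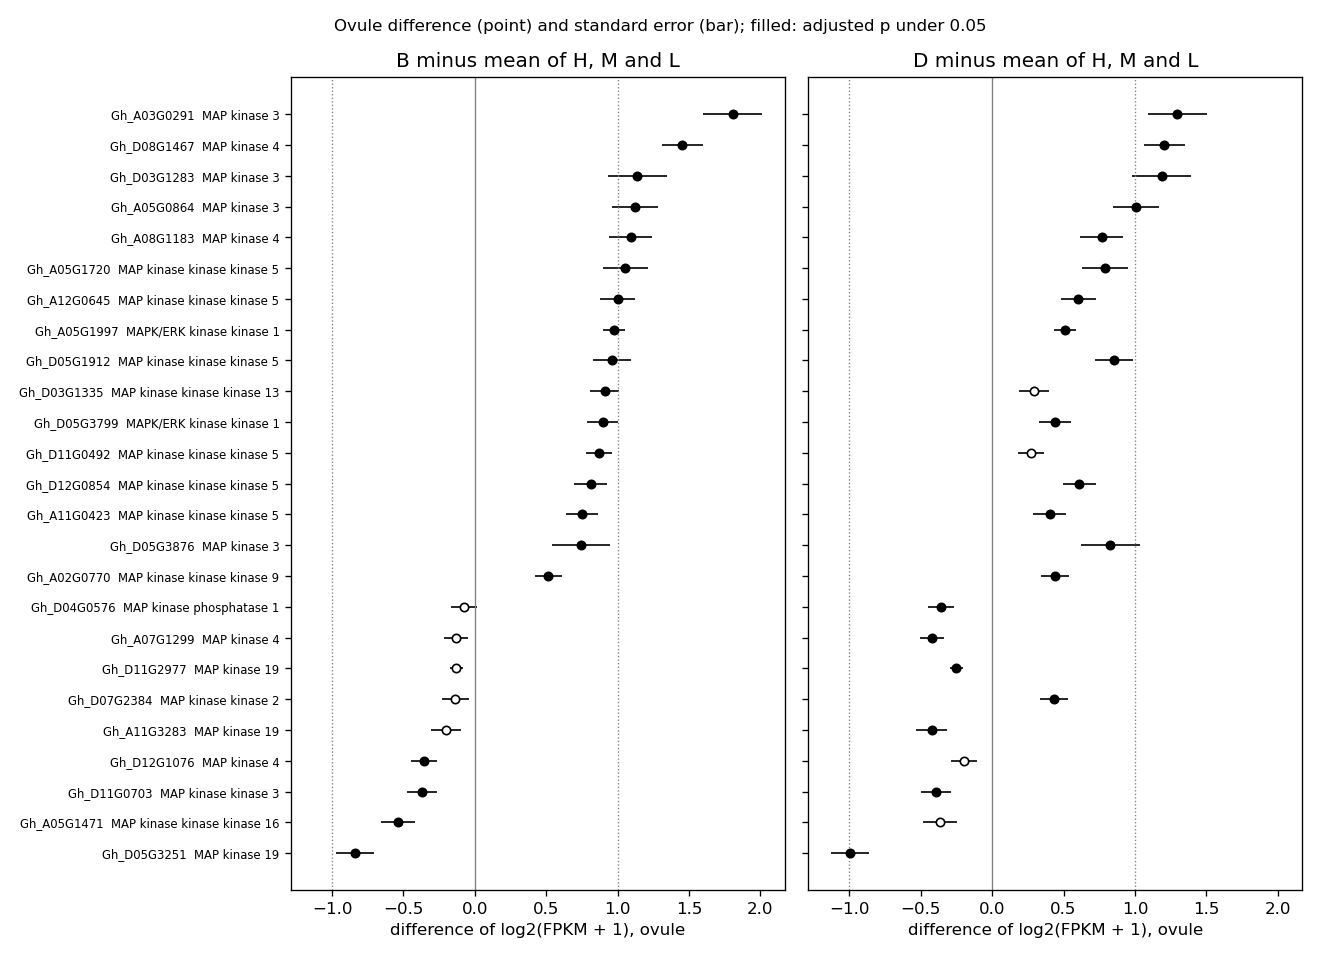
Difference of B (left) and D (right) from the mean of H, M and L in ovule on the log2(FPKM + 1) scale, with its standard error, for the 25 members that passed in B or D. Filled points have an adjusted p under 0.05, and dotted lines mark -1 and 1. The 15 points at the top of the left panel from Gh_A03G0291 down to Gh_D05G3876, and that of Gh_A02G0770, are all filled and to the right of 0.

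Of 41 MAP3Ks tested, 10 passed higher in B and 1 lower (all genes 4.09% and 3.4%). In D, 8 passed higher and 0 lower (all genes 4.62% and 4.98%). At an unadjusted p under 0.05 in limma, 16 MAP3Ks differed for D, against 23.5% of all genes. Of the 9 MAP kinase kinase kinase 5 loci, 6 passed higher in B and 5 in D, and both MEKK1 loci passed higher in each. Summed over loci, MAP kinase kinase kinase 5 had 55.53 FPKM in B and 44.13 in D, against 29.25 in H, 34.44 in M and 23.95 in L. A had 30.52 and C 35.62 FPKM.

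Gh_A05G1720 (MAP kinase kinase kinase 5) had 12.2, 16.8 and 12.7 FPKM in B and 10.2, 13 and 11 in D, above the highest of the 9 hybrid libraries (8.1). Its difference to the hybrids was 1.05 ± 0.16 for B (adjusted p = 3.72e-04) and 0.79 ± 0.16 for D (adjusted p = 4.59e-03). Gh_D05G1912, of the same description, differed by 0.96 ± 0.13 and 0.85 ± 0.13 (adjusted p = 1.54e-04 and 5.67e-04). These loci held at most 3.5 FPKM in flower buds and 2.43 in leaf.

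Gh_A12G0645 (MAP kinase kinase kinase 5) held 4, 5.11 and 4.66 FPKM in B and 3.11, 3.96 and 2.7 in D, and none of the hybrid libraries passed 2.53. B was higher by 1.00 ± 0.12 (adjusted p = 4.21e-05), at the limit of the call, and D by 0.60 ± 0.12 (adjusted p = 4.51e-03). Gh_D12G0854 differed by 0.81 ± 0.11 and 0.61 ± 0.11, Gh_A11G0423 by 0.75 ± 0.11 and 0.40 ± 0.11, and Gh_D11G0492 by 0.87 ± 0.09 in B and, without passing, 0.27 ± 0.09 in D.

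The MEKK1 loci, at the head of the MPK4 branch, differed in the same direction. Gh_A05G1997 had 16.5, 18.6 and 17 FPKM in B, above all hybrid libraries (6.84 to 11.8), and 11.6, 13.1 and 12.1 in D, which just overlapped them. The differences were 0.98 ± 0.08 (adjusted p = 5.47e-07) and 0.51 ± 0.08 (adjusted p = 5.87e-04). Gh_D05G3799 had 18.7, 20.9 and 20.3 FPKM in B and 13.8, 13.8 and 15.2 in D, against 8.38 to 11.1 in the hybrids (0.90 ± 0.11 and 0.44 ± 0.11). Of the other MAP3K loci, 2 passed higher: Gh_A02G0770 (MAP kinase kinase kinase 9) in B and D, and Gh_D03G1335 (MAP kinase kinase kinase 13) in B. Gh_A05G1471 (MAP kinase kinase kinase 16) was the MAP3K that passed lower in B, by 0.54 ± 0.12 (adjusted p = 9.02e-03). This pass was lost without B replicate 2 or 3 (adjusted p up to 0.0622 with 1 library left out). It was also lost with base quality as a covariate, where B rested on replicate 3 alone.

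The MAP2K level did not rise with them. Of 17 MAP2K loci tested, 1 passed in B and 2 in D: Gh_D11G0703 (MAP kinase kinase 3) was lower in both, by 0.37 ± 0.10 and 0.39 ± 0.10 (adjusted p = 4.04e-02 and 2.50e-02), and Gh_D07G2384 (MAP kinase kinase 2) was higher in D at a level of 0.622 FPKM. For Gh_D11G0703 in B, 19 of 31 alternatives no longer passed, and the difference was -0.23 without L replicates 2 and 3. The L replicates that stood apart held the highest values of Gh_D11G0703 in ovule, up to 22.9 FPKM.

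Of 52 MAPKs tested, 6 passed higher in B (all genes 4.09%) and 6 in D (all genes 4.62%), made up of the 4 tested MAP kinase 3 loci and MAP kinase 4 loci Gh_D08G1467 and Gh_A08G1183. Summed over loci, MAP kinase 3 had 71.93 FPKM in B and 60.47 in D, against 19.72 in H, 44.1 in M and 18.29 in L. The mean of C (49.88) also lay above those of all hybrids, and that of A (30.84) above those of H and L. Gh_D03G1283 held 18, 28.4 and 21.9 FPKM in B and 23, 22.8 and 23.8 in D. It overlapped the hybrids through M (25.8, 13.2 and 15.2 FPKM), while H (5.73 to 8.4) and L (5.43 to 10.9) lay lower, with differences of 1.14 ± 0.21 and 1.19 ± 0.21 (adjusted p = 2.01e-03 and 1.55e-03). Its pass in B was lost in 2 of 31 alternatives, and that in D was kept in all 30.

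Gh_A05G0864 (MAP kinase 3) had 10.5, 12.7 and 11.6 FPKM in B and 11.2, 10.7 and 10.1 in D, above all hybrid libraries (1.99 to 9.14). It was higher by 1.12 ± 0.16 (adjusted p = 2.37e-04) and 1.01 ± 0.16 (adjusted p = 7.40e-04). Gh_A08G1183 (MAP kinase 4) held 3.49, 6.09 and 3.08 FPKM in B, of which replicate 2 was well above the others, and 3.29, 2.61 and 3.28 in D, against 0.897 to 2.02 in the hybrids (1.09 ± 0.15 and 0.77 ± 0.15). The MAP kinase 6 loci, 6 in number and partners of MPK3 in Arabidopsis, passed in neither, with 52.11 FPKM in B, 54.6 in D and 51.94 to 56.73 in the hybrids.

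In the other direction, Gh_D05G3251 (MAP kinase 19) had 5.91, 8.1 and 8.05 FPKM in B and 6.9, 5.97 and 6.45 in D, below every hybrid library (10.1 to 16.6). The differences were -0.84 ± 0.13 (adjusted p = 5.45e-04) and -0.997 ± 0.13 (adjusted p = 1.32e-04), the latter just short of the call. The pass in B was lost in 2 of 31 alternatives, and that in D was kept in all 30. The MAPKs that passed lower were 2 in B and 4 in D (all genes 3.4% and 4.98%). Besides Gh_D05G3251 these were Gh_D12G1076 (MAP kinase 4) in B, at -0.36 ± 0.09, and in D Gh_A11G3283 and Gh_D11G2977 (MAP kinase 19), by 0.43 ± 0.11 and 0.25 ± 0.05, and Gh_A07G1299 (MAP kinase 4), by 0.42 ± 0.08. The pass of Gh_A11G3283 was lost without any 1 of the D libraries and in a fit of D and the hybrids alone (adjusted p from 2.39e-05 to 0.0775 over the alternatives), and without L replicates 2 and 3 its difference was -0.28. Of the phosphatases, Gh_D04G0576 passed lower in D by 0.36 ± 0.09 (adjusted p = 1.69e-02), and none passed in B.

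The other 2 parents differed less from the hybrids. A was called at 0 members in either direction (all genes 0.145% higher and 0.2% lower). At an unadjusted p under 0.05 in limma, 19 members (15.4%) differed for A, against 16.2% of all genes. With no minimum difference, A passed higher at 2 members and lower at 0 (all genes 1.28% and 1.05%). These were Gh_A05G3333 (6.3, 5.52 and 6.31 FPKM in A, at most 5.5 in the hybrids) and the joined locus Gh_D11G0033;Gh_D11G0034. Both passes were lost without any 1 of the A libraries and with base quality as a covariate, and over the alternatives the adjusted p ran from 6.95e-03 to 0.572 and from 6.50e-04 to 0.516. All 3 A libraries are in the lower base quality group and all hybrid libraries in the higher one. C was called higher at 0 (all genes 0.303%) and lower at 1 member (0.389%), and passed higher at 5 and lower at 3 (1.67% and 1.71%). The 5 were Gh_A03G0291, Gh_D03G1283, Gh_A05G0864, Gh_D08G1467 and Gh_A12G0645, at 0.99, 0.97, 0.69, 0.54 and 0.48 above the hybrids. The pass of Gh_D08G1467 (adjusted p = 0.0463) was lost in 20 of 29 alternatives, over which the adjusted p ran from 0.0149 to 0.239. Without C replicate 2 or 3, H replicate 2, L replicate 1 or M replicate 1, C was called at 3 members, Gh_A03G0291 and Gh_D03G1283 having joined.

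The 1 member called for C was the MEKK1 locus Gh_D05G3799, which was low in C in every tissue. C had 1.47, 1.39 and 1.35 FPKM in leaf, 1.69, 1.66 and 1.58 in flower buds and 4.76, 3.81 and 2.99 in ovule. All other genotypes lay at 5.26 FPKM or more in leaf, 4.53 or more in flower buds and 8.38 or more in ovule. C lay below the hybrids by 1.59 ± 0.08 in leaf, 1.53 ± 0.14 in flower buds and 1.23 ± 0.11 in the ovule (adjusted p = 2.20e-09, 6.63e-06 and 2.68e-06). M, the hybrid of A and C, had 5.48 FPKM in leaf, 5.82 in flower buds and 10.1 in the ovule on average, above C by 1.43 ± 0.10, 1.36 ± 0.18 and 1.20 ± 0.14 (adjusted p = 1.33e-07, 3.41e-04 and 4.98e-05).

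Each hybrid was then set against its own 2 parents. In leaf and in flower buds Gh_D05G3799, in M against C, was the single member called in any of the 6 contrasts, where 1.46% and 1.07% of all genes were called in at least 1. Leaving out A replicate 2 or D replicate 1 in leaf, or C replicate 1 in flower buds, made the count 2. In ovule 13 of 123 members were called in at least 1 contrast, against 7.98% of all genes, a count that became 8 when L replicates 2 and 3 were left out, and 22 when L replicate 1 was. With the share of all genes called in either direction in brackets, H was called lower than B at 7 members (1.19%) and differed from A at 0 (0.387%). M differed from A at 0 (0.372%) and was higher than C at 1 (0.563%). At an unadjusted p under 0.05 in limma, 12 members differed between H and A, or 9.76% against 10.2% of all genes. At that p, 13 members differed between M and A, or 10.6% against 9.92% of all genes. L was called higher at 1 and lower at 2 members against A (3.99%), and higher at 1 and lower at 7 against D (5.19%).

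The falls of H from B and of L from D had 4 of 7 loci each in common, of which 3 were MAP kinase 3 loci. This overlap was not counted over all genes, so it shows no departure of the members from them. Gh_A03G0291 differed by -2.11 ± 0.25 in H against B and by -1.80 ± 0.25 in L against D (adjusted p = 7.8e-05 and 3.0e-04). The latter was no longer called without L replicates 2 and 3, at -1.21 (adjusted p = 0.0569, with 5.92e-06 to 0.0569 over the alternatives). Gh_D08G1467 differed by -1.52 ± 0.17 and -1.58 ± 0.17 (adjusted p = 4.5e-05 and 3.3e-05). Gh_A05G0864 was called lower in L than in both parents, with differences of -1.07 ± 0.20 to A and -1.51 ± 0.20 to D (adjusted p = 4.29e-03 and 1.7e-04). Its L libraries held 5.23, 1.99 and 2.68 FPKM, the last 2 from the replicates that stood apart, against 6.86 to 8.07 in A. The difference to A was not called without those 2 replicates (-0.46) or with base quality as a covariate, and its adjusted p ran from 3.55e-06 to 0.368 over the alternatives. Gh_D12G0002 (MAP kinase substrate 1) was called higher in L than in both parents, but it was listed at 0 in all ovule libraries other than L replicates 2 and 3 (2.55 and 1.65 FPKM).

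By position of the mean, H lay below both parents in ovule at 37.4% of 123 members and 23.7% of all genes, and L at 47.2% and 36.8%. M lay below both parents at 19.5% of members and 25.9% of all genes, and between them at 55.3% and 40.4%. In flower buds L lay above both parents at 52% of members and 35.9% of all genes. These positions carry no test.

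The ovule differences of B and D were also tested against their own differences in the other tissues, over 138 members. For B, 6 members were called against leaf (all genes 1.13%) and 9 against flower buds (1.34%), all in the direction of a higher excess in ovule. For D, 2 members were called against leaf (0.598%), 1 in each direction, and 2 against flower buds (0.676%). Over the 4 tests 11 of 138 members were called at least once, against 2.65% of all genes. Gh_D08G1467 was called in all 4: its excess over the hybrids was larger in ovule than in leaf by 1.44 ± 0.17 in B and 1.11 ± 0.17 in D, and larger than in flower buds by 1.39 ± 0.17 and 1.34 ± 0.17 (adjusted p = 3.98e-08, 2.01e-05, 1.34e-07 and 6.88e-07). Gh_A03G0291 was called for B, by 1.81 ± 0.33 and 2.20 ± 0.33 (adjusted p = 3.58e-04 and 1.49e-05), and not for D (0.94 ± 0.33 and 0.90 ± 0.33, adjusted p = 0.155 and 0.190).

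Genes on either side of the cascade were read from 4 further lists, beside the 4.09% and 3.4% of all genes that passed higher and lower in B and the 4.62% and 4.98% in D. Of 17 receptor and adaptor loci tested (ERECTA, BRI1-associated receptor kinase, HAESA, embryo sac development arrest), 1 passed higher and 1 lower in B, and 1 higher and 2 lower in D. None of 4 NPK1 loci passed in either. None of 20 other phosphatases passed in B, and 1 passed in each direction in D. Of 39 target loci (WRKY DNA-binding protein 33, VQ motif, ACC synthase 6 and microtubule-associated protein 65), none passed in B or D. Between tissues, ovule against leaf called 6 target loci higher and 3 lower of 53, 4 other phosphatases higher and 1 lower of 20, and 1 receptor higher of 18, where 9.84% and 9.08% of all genes were called higher and lower.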

How the data were processed

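RNA-seq of 63 libraries was analysed from the deposited FPKM values. The authors trimmed reads with Cutadapt 1.10, aligned them to a G. hirsutum reference genome with HISAT 2.0, and assembled and quantified transcripts with StringTie 1.3 and Ballgown. The name of the genome build was not given in the sources used here. FPKM values were used as deposited, with no rescaling, and 21 columns that belong to no sample were not used. Reads were not used, so counting error could not be given.

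Genes above 0.5 FPKM in at least 1 library were tested with limma 3.58.1 (R 4.3.3) on log2(FPKM + 1), with a variance trend and robust estimation: 68947 genes in 1 model over 63 libraries for tissues and their differences, and 60031 (leaf), 63805 (flower buds) and 59372 (ovule) genes in models of 21 libraries. A difference understates the change of low genes. Hybrids means the mean of H, M and L. Adjusted p-values are Benjamini-Hochberg over all genes tested and measure the spread between libraries, whose 3 replicates per group are biological. Ranks were read from the descriptions, and "MAPK/ERK kinase kinase 1" was counted as a MAP3K. The fit was tested on simulated data.

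The genes, lists and tests were chosen with earlier results of these data known. Named genes are Gh_D08G1467 and Gh_A03G0291, the largest changes in each direction per contrast (4 for tissues without overlap of libraries, 3 for parents against hybrids, 1 for hybrids against parents, and any called against both parents), the 3 most abundant of each rank, and the 3 most like the first pair. Others were named after their values were seen, to complete a group or a count. None of the 147 loci matched the RefSeq table (0 matched), so no coordinates, promoters or proteins are given. Alternatives were no filter on low values, a stricter one (at least 1 FPKM in 3 libraries of a group), a pseudocount of 0.1, upper quartile rescaling, no trend, other call rules, a replicate block, each library left out, L ovule replicates 2 and 3 left out, base quality, and a fit on the groups compared. Other values came from Python 3.11.15 (pandas 2.3.3, numpy 2.4.6, matplotlib 3.10.9).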

Additional observations from a re-analysis of the deposited data

Results flagged for a closer look

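In 11 of 138 members (all genes 2.65%, and 0.598 to 1.34% in the single tests) the difference of B or D from the hybrids was not the same in ovule as in another tissue by limma's test of the difference itself. In B, the excess in ovule over that in leaf was 1.8089 on the log2 scale for Gh_A03G0291, 1.4414 for Gh_D08G1467, 1.2571 for Gh_D03G1283, 1.2293 for Gh_A08G1183, 1.078 for Gh_A05G1997 and 1.056 for Gh_A12G0645. Over flower buds it was 2.2005 for Gh_A03G0291, 1.5213 for Gh_D03G1283, 1.3865 for Gh_D08G1467, 1.2042 for Gh_A05G0864, 1.1797 for Gh_A05G1720, 1.141 for Gh_D03G1335, 1.092 for Gh_A05G1997, 1.0805 for Gh_D05G1912 and 1.0427 for Gh_A08G1183. In D, it was 1.1135 over leaf and 1.3375 over flower buds for Gh_D08G1467, and 1.0231 over flower buds for Gh_D03G1283. For Gh_D05G3251 in D the difference was more negative in ovule than in leaf (-1.1551). Base quality group, which moves with B in ovule, was not a term of these fits, and its part in them was not tested.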

How the results depend on the processing

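Among the named genes and comparisons refitted, no called or passing difference changed direction under any alternative, though the uncalled difference of A from the hybrids for Gh_A03G0291 (0.13) became -0.06 without L replicates 2 and 3. Of the values of named genes 3345 kept their side of the adjusted p threshold, with no minimum difference, and 84 lost it. A call lost through the fold limit alone is not among the 84, such as that of Gh_D08G1467 for ovule against flower buds. A contrast between tissues entered with 70 alternatives and one within a tissue with 27 to 31, so the tally leans on the tissue contrasts. With no minimum difference the members called were 92 (33 higher and 59 lower), 84 (49 and 35) and 98 (68 and 30) for leaf against flower buds, ovule against flower buds and ovule against leaf, where 65.2, 59.9 and 67.2% of all genes passed, 25 for differences between tissues (all genes 8.45%), 20, 21, 2 and 8 for B, D, A and C against the hybrids in ovule, and 2, 3 and 50 for hybrids against parents in leaf, flower buds and ovule (all genes 3.79, 2.29 and 29.2%). At an unadjusted p with the same fold, 17 differed between tissues (all genes 7.02%) and the hybrid and parent counts were 4 in leaf and 5 in flower buds (5.12 and 4.78%). A pseudocount of 0.1 gave 20, 25 and 32 for the tissue contrasts, 12, 10 (8 higher and 2 lower) and 4 for B, D and C, and 21 for hybrids against parents in ovule. Upper quartile rescaling gave 3 for C, and lost Gh_D08G1467 for ovule against flower buds, Gh_D11G2977 for leaf against flower buds and Gh_A12G0645 for differences between tissues. Without L ovule replicates 2 and 3, B had 3 members and hybrids against parents 8. With base quality as a covariate, where B rested on replicate 3 alone, B had 4. Leaving out each library in turn gave 3 to 9 for B, 3 to 5 for D, 0 for A, 1 to 3 for C, 10 to 22 for hybrids against parents in ovule, 1 to 2 in leaf and 1 to 2 in flower buds, 8 to 14 for differences between tissues, and 12, 12 to 13 and 17 to 18 for the tissue contrasts. Shares of all genes were computed for the main fit only. Counts from the refits, here and above, therefore show how the calls of members moved and are not set against a background. The causes were not tested.

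With a replicate block, B had 7 and D 4 members called, and no count changed. The replicate numbers were not taken to pair the samples, since not every pair of same-numbered libraries had a correlation of deviations above 0.1. Its median was 0.00167 in leaf, 0.108 in flower buds (33 of 63 above 0.1, highest 0.513, against a median of -0.0831 for other pairs) and 0.00528 in ovule, so that same-numbered bud libraries deviated together more than others did. The files give no depth, so for low loci, such as MAP kinase kinase 4 and 5 and the substrates, a level of 0 has no stated limit.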

Other observations

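In ovule, 7 members were above 0 in no library other than L replicates 2 or 3. Of these 7, 1 was above 0 in both (Gh_D12G0002). The same count was not made over all genes, so it shows no departure of the members from them. Over all genes tested, these 2 libraries stood apart from the other ovule libraries, with median correlations of 0.812 and 0.800. The values in L replicate 3 were 4.41 FPKM for Gh_Sca058851G01 (MAP kinase kinase 5), 1.23 for Gh_D06G1960 (MAP kinase kinase 4) and 1.104 for Gh_Sca004866G07 (MAP kinase substrate 1), and in L replicate 2 Gh_D08G2141 (MAP kinase kinase kinase 13) held 5.33 FPKM. The other 2, Gh_A12G0576 and Gh_A12G2448, did not pass 0.39 FPKM.

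MAP kinase kinase kinase 18, which responds to abscisic acid in Arabidopsis, was uneven between replicates in ovule. Gh_A10G0115 had 5.76, 0.862 and 5.68 FPKM in A, 0, 4.69 and 5.85 in B, and 3.56, 2.98 and 2.67 in L, and was listed at 0 in all 3 H libraries.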
